A study of Mus musculus with 24 samples.

Results

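Of the 8 mouse brain libraries of time code 05, 3 carried more haemoglobin RNA than any other library of the series, and the 5 others are set against them here. These 3 were chosen by their own level of Hbb-bs, the adult beta haemoglobin chain: they are the libraries of time code 05 above 100 CPM (counts scaled to a common library total, which a TMM factor first corrects for composition). They stand in columns 1, 2 and 3 of the count table (libraries E3-05 1, E4-05 1 and E3-05 2). The other 5 libraries of time code 05 stand in columns 4 to 8 (E4-05 2, E3-05 3, E4-05 3, E3-05 4 and E4-05 4). The whole series holds 24 libraries of polyadenylated RNA from mouse brain, with 4 in each of 6 groups that join an E code (E3 or E4) to a time code (05, 10 or 15). The labels spell out neither code and give no strain, age, sex, treatment or brain region, and their titles number the 4 libraries of each month as biological replicates without naming animals. Each p-value therefore covers only the library-to-library spread. The libraries in columns 1 to 4 are titled January and those in columns 5 to 8 February. The 3 libraries lie in adjacent columns, so a high haemoglobin level and whatever else columns 1 to 3 share cannot be told apart.

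Total counts of the 8 libraries ran from 37.4 M to 65.7 M (M, mega). Libraries in columns whose number is a multiple of 3 were rich in hindbrain RNA: Gabra6, a GABA receptor subunit of cerebellar granule cells, ran from 85.5 to 533 CPM in these 8 libraries of the series and reached at most 4.63 CPM in the others. Columns 3 and 6 are the hindbrain-rich libraries of time code 05, and every difference below was fitted with a term for them. Column 6 also stood apart in its blood cell RNA, and column 7 in its pituitary RNA, with growth hormone (Gh) at 7123 CPM against at most 62.6 CPM in the other 7 libraries.

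Brain tissue taken without full removal of blood keeps red cells in its vessels. Circulating red cells have lost their nucleus, and the youngest of them, the reticulocytes, still hold RNA, most of it for the haemoglobin chains. Their precursors in bone marrow carry more kinds of transcript, such as those of membrane proteins and of the transcription factors that drive the lineage. Alas2 is the erythroid enzyme of the first step of haem synthesis, and Slc4a1 is the anion exchanger of the red cell membrane. In bulk libraries, fewer cells of a type and less RNA per cell cannot be told apart.

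The promoters of 3 genes that mark the haemoglobin-rich libraries, and of the gene that most clearly set them apart outside the red cell list, are shown for their sequence features. Each is the 250 bases before the gene start in RefSeq, on build GRCm38.p6 and not the mm39 build of the counts, written 5′ to 3′ on the strand of the gene. Capitals mark the 4 motifs searched on both strands. The first, AGATAA, is bound by factors of the family of Gata1. The second motif, CCACCC, is of the kind bound by Klf1. The third, CCAAT, and the fourth, ATATAA, are general promoter elements. No 2 of these motifs overlap by their letters in these stretches, but 3 CCACCC matches run into each other in Alas2.
Hbb-bs (chr7:103827929-103828178, minus strand): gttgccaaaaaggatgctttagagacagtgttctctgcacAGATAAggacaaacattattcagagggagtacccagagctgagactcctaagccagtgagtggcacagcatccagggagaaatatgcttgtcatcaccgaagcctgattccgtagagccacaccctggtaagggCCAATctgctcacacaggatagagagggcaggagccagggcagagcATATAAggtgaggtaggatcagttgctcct
Hba-a1 (chr11:32283422-32283671, plus strand): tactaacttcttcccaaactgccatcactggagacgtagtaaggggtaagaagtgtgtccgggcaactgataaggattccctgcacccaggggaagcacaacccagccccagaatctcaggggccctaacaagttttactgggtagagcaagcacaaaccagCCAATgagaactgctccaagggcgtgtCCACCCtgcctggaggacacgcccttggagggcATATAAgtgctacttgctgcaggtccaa
Alas2 (chrX:150547167-150547416, plus strand): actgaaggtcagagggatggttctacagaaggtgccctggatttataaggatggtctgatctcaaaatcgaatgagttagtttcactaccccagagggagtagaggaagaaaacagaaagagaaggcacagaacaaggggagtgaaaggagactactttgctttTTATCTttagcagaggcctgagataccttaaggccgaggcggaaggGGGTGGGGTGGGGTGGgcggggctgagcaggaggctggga
Capn11 (chr17:45659310-45659559, minus strand): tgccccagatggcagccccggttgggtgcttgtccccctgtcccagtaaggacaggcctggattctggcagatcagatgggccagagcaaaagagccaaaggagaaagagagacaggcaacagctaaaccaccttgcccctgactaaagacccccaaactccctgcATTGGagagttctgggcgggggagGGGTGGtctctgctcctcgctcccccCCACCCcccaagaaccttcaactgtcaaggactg

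AGATAA or its reverse complement stood in the Hbb-bs and Alas2 stretches and in neither Hba-a1 nor Capn11. It was in 9.99% of 32851 promoter stretches of this length in the table, against 28.1% for CCACCC, 33.9% for CCAAT and 9.1% for ATATAA. Of the 24 genes of the red cell list, 19 were in the promoter table; AGATAA was in 6 of them, CCACCC in 12, CCAAT in 12 and ATATAA in 6. Only these exact spellings were searched, so near variants are unmarked, such as TGATAA in Hba-a1 and CCACACCC in Hbb-bs. A match of letters is a description of the window and not a binding site.

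The haemoglobin chains and Alas2 were the red cell transcripts that set columns 1 to 3 apart. Hbb-bs, which defined the libraries, was at 146, 167 and 167 CPM in columns 1 to 3, against 3.02, 2.88, 44.1, 19.6 and 18.9 CPM in columns 4 to 8. The lowest level inside the 100 CPM limit was thus 146 CPM and the highest outside it 44.1 CPM, and the 5 other libraries were themselves spread over more than an order of magnitude. The library in column 4 is titled January like those in columns 1 to 3 and had one of the lowest levels. All differences between columns 1 to 3 and columns 4 to 8 are given as descriptions, on the log2 scale with the standard error (SE) of the fit, since the libraries were chosen on a measured level. That of Hbb-bs was 3.34 ± 0.67 (SE, 3 against 5 libraries).

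Hba-a1, an adult alpha haemoglobin chain, was at 83.5, 96.2 and 84.4 CPM in columns 1 to 3, against 1.25, 2.99, 31.5, 13.0 and 11.1 CPM in columns 4 to 8, a log2 difference of 3.11 ± 0.68. Alas2 was at 8.0, 9.44 and 9.84 CPM in columns 1 to 3, against 0.591, 0.316, 4.37, 1.22 and 1.40 CPM in columns 4 to 8, a log2 difference of 2.75 ± 0.50. The 3 markers did not overlap between the 2 sets of libraries, and in each of them column 6 was the highest of the 5 lower libraries. Hbb-bt, the second adult beta chain, was at 6.70, 8.42 and 7.74 CPM in columns 1 to 3, against 0.76, 0.176, 4.07, 1.08 and 1.56 CPM in columns 4 to 8. Its log2 difference was 2.52 ± 0.57, and its groups did not overlap either. Hba-a2, the second adult alpha chain, was at 9.16, 2.88 and 10.6 CPM in columns 1 to 3, against 0.444, 0.211, 6.38, 1.83 and 1.98 CPM in columns 4 to 8. Here column 2 was low, below column 6, although Hba-a1 was highest in column 2. Hba-a1 and Hba-a2, like Hbb-bs and Hbb-bt, are near-identical copies, so the split of reads between the members of each pair is uncertain.

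**Figure D1:**
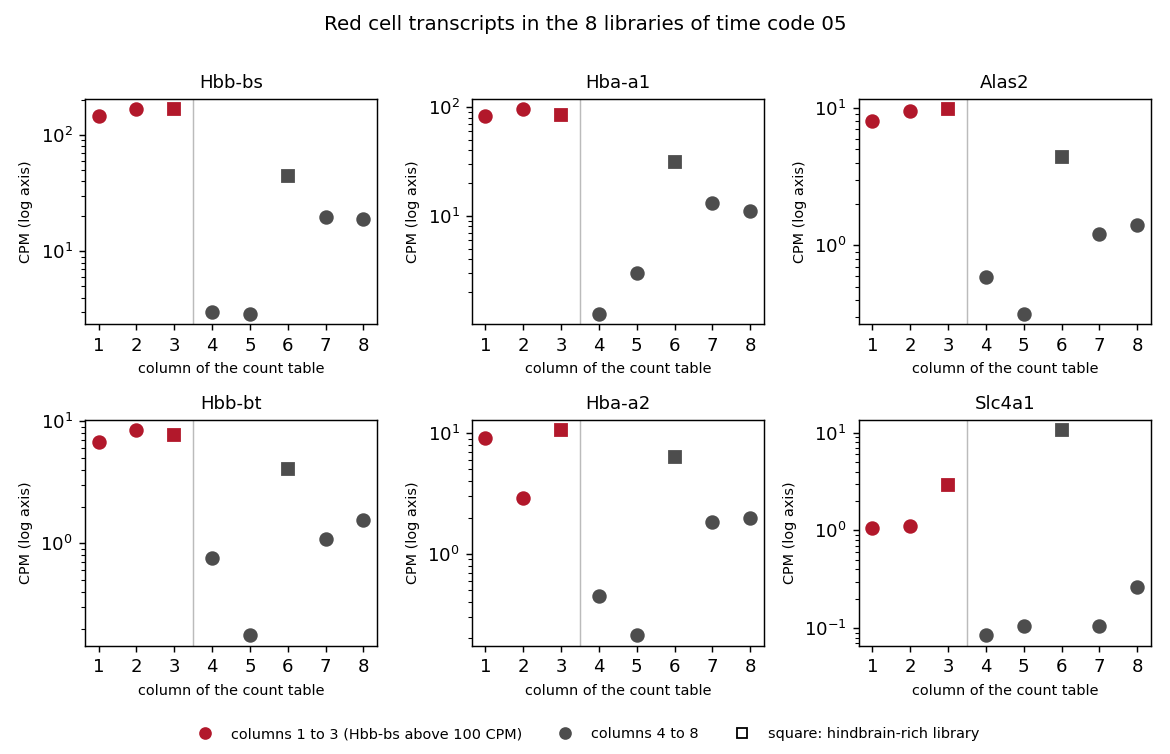
CPM on log axes of 6 red cell transcripts in each of the 8 libraries of time code 05, ordered by column, with 1 point for each library. Columns 1 to 3 lie above all others for Hbb-bs, Hba-a1, Alas2 and Hbb-bt, while Slc4a1 is highest in column 6, at 10.5 CPM.

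As a share of all counts, the 4 adult haemoglobin genes took 0.0233%, 0.0284% and 0.0284% in columns 1 to 3, and 0.000521% to 0.00945% in columns 4 to 8. The exact binomial 95% interval was 0.0229% to 0.0238% for column 1 and 0.00915% to 0.00976% for column 6, and covers counting error only. Haemoglobin RNA was thus a small part of every library. The embryonic chains were at or near 0: Hbb-bh1 and Hba-x had 0 counts in all 8 libraries, and Hbb-y had 0 counts in columns 1 to 3 and 4 in columns 4 to 8. Hbq1a, a theta chain, was at 0.251, 0.748 and 0.203 CPM in columns 1 to 3 and 0.139 to 0.423 CPM in columns 4 to 8, so that its groups overlapped.

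Red cell transcripts other than haemoglobin and Alas2 did not follow the Hbb-bs level across all 8 libraries, and column 6 was their highest. Outside the hindbrain-rich libraries, Slc4a1 was higher in columns 1 and 2 than in each of columns 4, 5, 7 and 8. Of the whole red cell list, haemoglobin genes and Alas2 included, 9 of 24 genes were higher in this way and 1 was lower. How many of all genes did so was not counted, so nothing is read from these numbers. Klf1 overlapped between these columns. Slc4a1 was at 1.05, 1.10 and 2.88 CPM in columns 1 to 3, against 0.0845, 0.105, 10.5, 0.106 and 0.265 CPM in columns 4 to 8. Column 6 had 456 counts of Slc4a1, more than the 295 of columns 1 to 3 together, at a lower Hbb-bs level than any of them. Its fitted log2 difference was 1.56 ± 0.86, and -0.68 with no hindbrain term. Over time codes 10 and 15, Slc4a1 was at 1.31 to 2.67 CPM in the hindbrain-rich libraries and at most 1.28 CPM in the others. Counted against Hbb-bs, Slc4a1 came to 0.719%, 0.658% and 1.72% of the Hbb-bs counts in columns 1 to 3, and to 2.8%, 3.66%, 23.9%, 0.539% and 1.4% in columns 4 to 8. Alas2 came to 5.48%, 5.65% and 5.88% of the Hbb-bs counts in columns 1 to 3, and to 6.2% to 19.6% in columns 4 to 8. The 3 haemoglobin-rich libraries were thus close to one another in the ratio of Alas2. The 23.9% of Slc4a1 in column 6 was the highest of time code 05, but lay within the 2.59% to 39.3% of the 16 libraries of time codes 10 and 15 (median 10.2%), and columns 1 to 3, 7 and 8 lay below that range.

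All 14 genes of the red cell list other than haemoglobin chains and Alas2, a division made after the values were seen, were higher in column 6 than in any other library of the series. They include Ahsp, the chaperone of free alpha haemoglobin, which was at 0.0912, 0.132 and 0.232 CPM in columns 1 to 3 and at 1.8 CPM in column 6. In columns 4, 5, 7 and 8 Ahsp was at 0.0422, 0.0351, 0 and 0 CPM, below columns 1 to 3. Gata1, the erythroid GATA factor, had 0, 0 and 8 counts in columns 1 to 3 and 34 in column 6. Of Klf1, the erythroid factor of CACC boxes, columns 1 to 3 had 20, 2 and 11 counts and column 6 had 39. Kel, a blood group antigen, had 0, 0 and 2 counts in columns 1 to 3 and 23 in column 6. How many of all genes were highest in column 6 was not counted.

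Of the 24 genes of the red cell list, 10 passed the filter on low counts in the 8 libraries: 8 were higher and 2 (Klf1 and Ermap) lower in columns 1 to 3 on the fitted scale, with a median log2 difference of 1.77. This median covers only genes that passed, and over all 18996 genes tested it was -0.01. For genes above a log2 difference of 1 the count was 6 of 10, and for genes whose lowest value in columns 1 to 3 exceeded the highest in columns 4 to 8 it was 4 of 10. Over all genes tested, 1.11% were above 1 and 0.779% were above without overlap, while 1.79% were below -1 and 1.05% below without overlap; the rule used these values, so nothing is read from the shares. With the filter applied anew, the red cell list median was 2.95 without column 6 and 0.53 without column 1. In column 3 minus column 6, the 2 hindbrain-rich libraries, the log2 difference was 1.92 for Hbb-bs and -1.86 for Slc4a1, and between columns 1 and 2 and the mean of columns 4, 5, 7 and 8 it was 4.36 for Hbb-bs and 2.73 for Slc4a1.

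Most transcripts of neutrophils, platelets and monocytes were highest in column 6 and not in columns 1 to 3. Of the 17 neutrophil genes, 14 were highest in column 6 among the 8 libraries, as were 8 of 14 platelet genes and 9 of 12 blood monocyte genes. How many of all genes were highest there was not counted, so nothing is read from these numbers. All 13 choroid plexus genes were highest there too, and nothing is read from that number either. Ngp, a granule protein of maturing neutrophils, was at 1.55, 2.02 and 8.22 CPM in columns 1 to 3, against 1.01, 1.65, 22.7, 0.265 and 0.503 CPM in columns 4 to 8. S100a9, an abundant cytosolic protein of neutrophils, was at 1.25, 1.30 and 6.86 CPM in columns 1 to 3, against 0.38, 1.28, 17.4, 0.476 and 0.688 CPM in columns 4 to 8. Both were highest in the hindbrain-rich library of each set. The mean log2 CPM of the neutrophil list ran from -1.42 to -0.234 in the hindbrain-rich libraries of time codes 10 and 15. In the others of those time codes it ran from -2.24 to -1.30. Elane and Mpo, proteins of early granulocyte granules, reached 0.232 and 0.637 CPM at most in columns 1 to 3 and 1.85 and 4.9 CPM in column 6. The summed neutrophil list came to 17.2, 21.6 and 40.8 CPM in columns 1 to 3 and to 12.6, 15.8, 88.1, 14.2 and 13.3 CPM in columns 4 to 8.

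**Figure D2:**
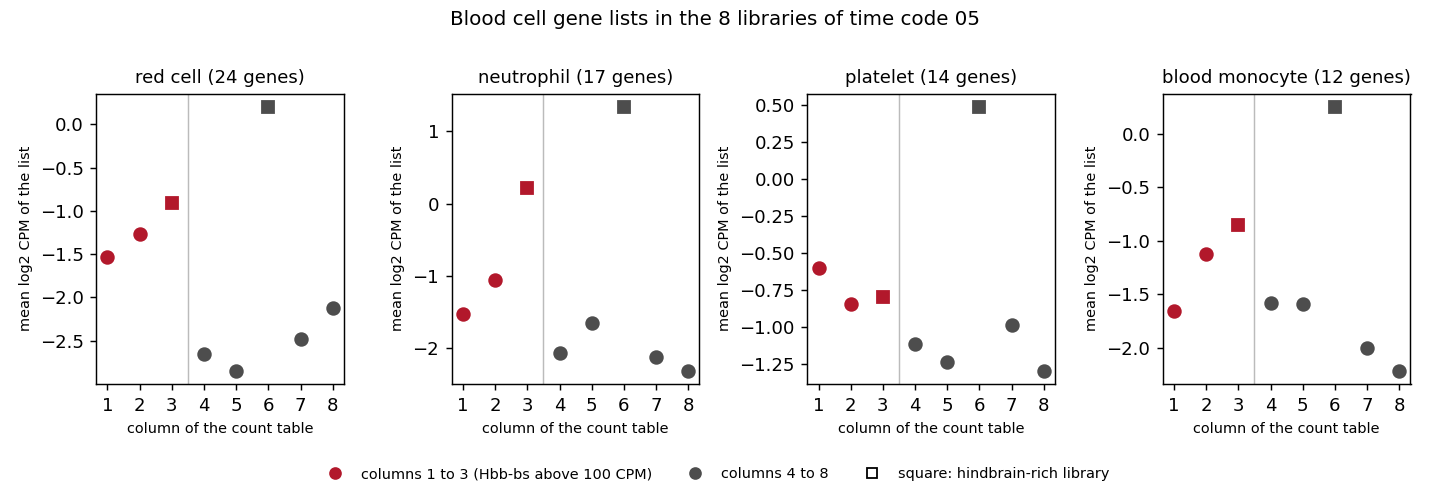
Mean log2 CPM of 4 blood cell gene lists in each of the 8 libraries of time code 05, by column. Column 6 is the highest library in all 4 lists, at 0.20 for the red cell list and 1.34 for the neutrophil list.

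On the fitted scale the neutrophil list had 6 genes higher and 5 lower in columns 1 to 3, with a median log2 difference of 0.10. The platelet list had 5 higher and 6 lower (median -0.17), and Pf4, a chemokine of platelet granules, differed by -0.88 ± 0.33. The blood monocyte list had 5 higher and 2 lower (median 0.12), with Lyz2, a lysozyme of myeloid cells, at 0.12 ± 0.20. These medians were not stable when single libraries were left out and the filter was applied anew. The neutrophil median was 0.74 without column 6, 0.72 without column 3 and -0.09 without column 2. The platelet median was 0.19 without column 3. The monocyte median was -0.13 without column 2, 0.78 without column 3 and 0.41 without column 6. In the lymphocyte list 8 genes were higher and 2 lower, with a median of 0.62, but Cd3e and Ccl5 were at low levels. Cd3e is of the T cell receptor complex. It was at 0.228, 0.352 and 0.275 CPM in columns 1 to 3 and at 0 to 0.277 CPM in columns 4 to 8. Ccl5, a T cell chemokine, was at 0.396 to 0.492 CPM in columns 1 to 3 and at most 0.212 CPM in columns 4 to 8, without overlap. Cd4 was at 28.9, 16.3 and 0.565 CPM in columns 1 to 3 and at 7.94, 5.39, 0.462, 6.93 and 14.0 CPM in columns 4 to 8, low in both hindbrain-rich libraries. Over time codes 10 and 15, Cd4 was highest in columns 16 and 14, at 54.2 and 39.4 CPM. Gpr6, of the striatum list, was highest in the same columns, at 44.0 and 32.2 CPM. The cell source of Cd4 was not tested.

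Genes that reticulocytes share with brain cells did not stand out beside haemoglobin. Of the 16 genes of this list, 7 were higher and 9 lower in columns 1 to 3, with a median log2 difference of -0.02 and 0 of 16 above 1. Bpgm, which makes the ligand that lowers the oxygen affinity of haemoglobin, differed by -0.03 ± 0.09. Fech, the last enzyme of haem synthesis, differed by -0.01 ± 0.06, at 66.8, 66.3 and 72.0 CPM in columns 1 to 3 and 64.7 to 72.5 CPM in columns 4 to 8. Slc25a37, the mitochondrial iron importer, differed by -0.24 ± 0.14. Ube2l6, a ubiquitin-conjugating enzyme, had the largest positive value of the list, 0.54 ± 0.21, at 8.94, 9.15 and 6.86 CPM in columns 1 to 3 against 4.79, 6.13, 7.14, 6.48 and 3.81 CPM in columns 4 to 8. Its groups overlapped.

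Genes that handle free haem and iron likewise had small differences. Of 18 genes, 5 were higher and 13 lower in columns 1 to 3 (median -0.07). Hmox1, the inducible haem oxygenase that opens the haem ring, was at 5.36, 5.23 and 6.08 CPM in columns 1 to 3 and 4.88 to 7.56 CPM in columns 4 to 8, a log2 difference of -0.11 ± 0.13. Cd163, the macrophage receptor for haemoglobin bound to haptoglobin, differed by 0.19 ± 0.27. Slc40a1, the iron exporter ferroportin, was lower in columns 1 to 3 without overlap, at 12.3, 11.8 and 9.83 CPM against 17.7, 13.7, 16.3, 17.9 and 16.7 CPM in columns 4 to 8, a difference of -0.53 ± 0.12. Fth1, the ferritin heavy chain, differed by -0.24 ± 0.14.

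Lists of vessel, barrier and resident immune cells had median log2 differences from -0.26 to 0.13. The endothelial list had 4 genes higher and 16 lower (median -0.08), and the mural list 5 higher and 9 lower (median -0.08). Kdr, a receptor of vascular growth factor, was at 27.4, 21.5 and 26.6 CPM in columns 1 to 3 and 27.4 to 32.4 CPM in columns 4 to 8. Vwf, the von Willebrand factor of endothelium, was at 34.9, 38.6 and 30.3 CPM in columns 1 to 3 against 20.4, 20.7, 23.8, 27.2 and 31.5 CPM in columns 4 to 8, a difference of 0.50 ± 0.15. Border macrophage genes had a median of 0.13 and homeostatic microglia genes of 0.01, with 7 genes higher and 7 lower. The meningeal fibroblast median was -0.19, and ran from -0.39 without column 2 to -0.08 without column 6. The choroid plexus median of -0.26 changed size and sign, at -1.94 without column 1 and 0.22 without column 2. The border macrophage median was 0.014 without column 2. All 13 choroid plexus genes and 12 of 16 meningeal fibroblast genes were highest in column 6 among the 8 libraries. The share of all genes highest there was not counted, so nothing is read from these numbers. Ribosomal protein genes (median 0.04) and interferon response genes (median -0.03) were close to the median of all genes.

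Outside the red cell list, 1 gene stood furthest from its own spread. Capn11, a calpain protease described mainly in testis, was at 4.4, 5.59 and 8.66 CPM in columns 1 to 3, against 0.613, 0.246, 0.601, 0.397 and 0.317 CPM in columns 4 to 8. All 3 libraries were above all 5 others, and the log2 difference was 3.71 ± 0.28. It was the only gene past an adjusted p of 0.05 in edgeR's quasi-likelihood fit of these 8 libraries, which is 0.00526% of the genes tested and from which nothing is read, with 1166 genes at an unadjusted p under 0.05; DESeq2 put 83 genes past the threshold. Capn11 was no longer past it without column 1, 2 or 3 or with no hindbrain term, and its log2 difference ran from 3.58 to 3.93 when each of the 8 libraries was left out. In the 16 libraries of time codes 10 and 15 Capn11 ran from 0.0918 to 2.57 CPM with a median of 0.434 CPM. It was highest there in the adjacent columns 22, 23 and 24, at 1.87, 1.21 and 2.57 CPM. Hbb-bs was at 7.13, 5.07 and 5.77 CPM in those columns.

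**Figure D3:**
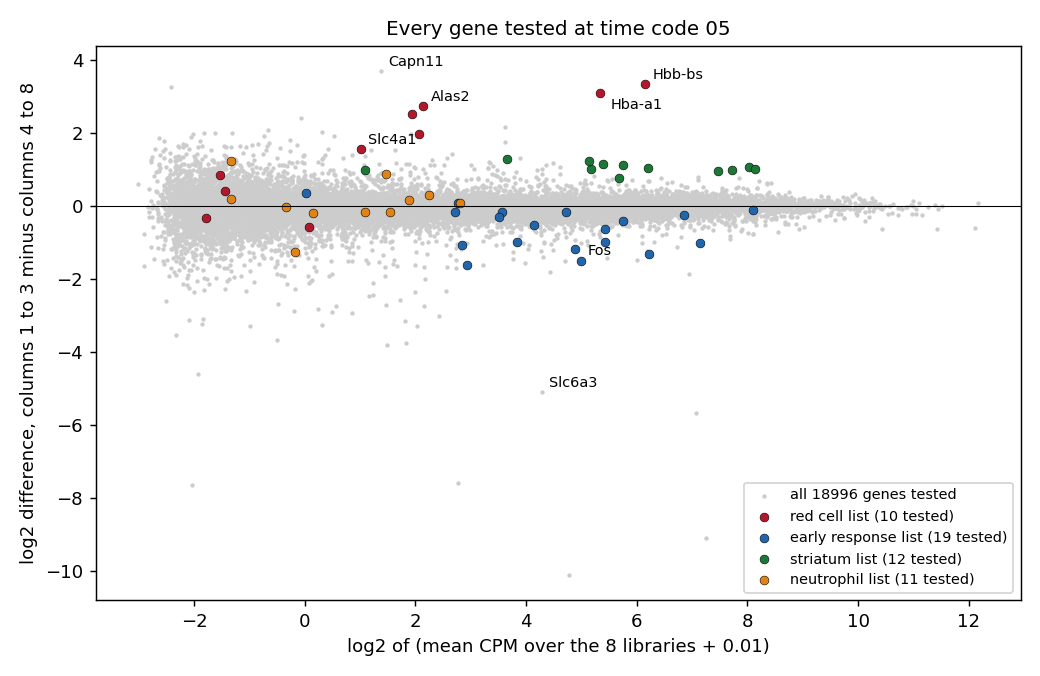
Log2 difference of columns 1 to 3 minus columns 4 to 8 for each gene tested, against the log2 of its mean CPM over the 8 libraries, with 4 gene lists coloured. The haemoglobin chains, Alas2 and Capn11 lie at the top, the striatum list near 1, and most of the early response list below 0.

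Early response genes, which neurons switch on within minutes of activity or handling, were mostly lower in columns 1 to 3. Of 19 genes, 17 were lower and 2 higher, 6 were below a log2 difference of -1, and the median was -0.52. Over all genes tested, 1.79% were below -1. The rule used this contrast, so nothing is read from the share. Fos, a transcription factor subunit of this class, was at 14.8, 15.5 and 11.7 CPM in columns 1 to 3, against 45.1, 40.3, 26.8, 64.2 and 35.0 CPM in columns 4 to 8. Its groups did not overlap, the log2 difference was -1.50 ± 0.20, and it was -1.20 in column 3 minus column 6. Dusp1, a phosphatase of MAP kinases, was at 28.4, 22.8 and 28.4 CPM in columns 1 to 3, against 49.9, 51.7, 46.3, 69.6 and 47.5 CPM in columns 4 to 8. Nr4a1, an orphan nuclear receptor, was at 48.1, 33.0 and 16.0 CPM in columns 1 to 3, against 138, 123, 24.3, 153 and 64.2 CPM in columns 4 to 8. Egr1, the most abundant of the list, overlapped at 414, 214 and 63.9 CPM in columns 1 to 3, against 466, 382, 54.5, 403 and 195 CPM in columns 4 to 8.

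Genes of brain regions also differed between the libraries. All 12 striatum genes were higher in columns 1 to 3 on the fitted scale (median 1.03). Penk, the enkephalin precursor, was at 515, 516 and 134 CPM in columns 1 to 3, against 164, 265, 94.2, 160 and 250 CPM in columns 4 to 8. Gpr6, a receptor of striatal projection neurons, was at 32.9, 26.3 and 0.376 CPM in columns 1 to 3, against 8.3, 12.1, 0.416, 10.2 and 10.7 CPM in columns 4 to 8. In columns 1 and 2, 11 of the 12 lay above each of columns 4, 5, 7 and 8. How many of all genes did so was not counted, so nothing is read from this number. Thalamus genes (median -0.96) and hippocampus genes (median -0.82) were lower, with 10 of 12 and 11 of 12 in that direction. Slc6a3, the dopamine transporter of midbrain neurons, was at 0.319, 0.99 and 0.405 CPM in columns 1 to 3, against 22.5, 36.9, 2.75, 41.8 and 49.6 CPM in columns 4 to 8, without overlap. Over time codes 10 and 15 Slc6a3 ran from 0.582 to 65.4 CPM. It was at 0.953, 0.622, 0.582, 0.762 and 0.905 CPM in columns 9, 16, 18, 22 and 23. Myelin genes were lower in 14 of 14 (median -0.57), and 2 of the 14 were lower without overlap, against 1.05% of all genes tested; the rule used this contrast, so nothing is read from the share. Of the other genes closest to the threshold, Tbc1d8 (0.62 ± 0.08), Meis2 (0.79 ± 0.13), Ano2 (1.13 ± 0.19) and Ankrd63 (1.12 ± 0.20) were higher, and Pdxk (-0.82 ± 0.12), Zfp469 (-0.95 ± 0.15) and Ier2 (-0.98 ± 0.16) lower. Pdxk was at 109 to 167 CPM in columns 1 to 3 and at 113 to 153 CPM in columns 16 to 24. The part of brain region in these values, and in those of the early response genes, was not tested.

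The 16 libraries of time codes 10 and 15 were not used to choose columns 1 to 3, and their Hbb-bs level ran from 3.45 to 29.0 CPM with a median of 5.97 CPM, all under the level of columns 1 to 3. Each gene's slope on the log2 CPM of Hbb-bs was tested there with edgeR's quasi-likelihood test, with terms for the 4 groups and for hindbrain-rich libraries. A slope of 1 means that a gene doubled where Hbb-bs doubled. Of 19846 genes, 0 passed an adjusted p of 0.05 (0%), and the smallest adjusted p was 0.334; 2095 had an unadjusted p under 0.05, of which 1023 were positive (5.15%) and 1072 negative (5.4%). With DESeq2 65 genes passed and with limma-voom 4.

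Hba-a1 had the smallest p, with a slope of 1.07 ± 0.17 (SE, n = 16 libraries; edgeR p = 1.68e-05 unadjusted, adjusted p = 0.334), and it passed in DESeq2 and limma-voom. It ran from 2.15 to 22.2 CPM with a median of 3.95 CPM. Alas2 had a slope of 1.03 ± 0.26 (n = 16 libraries; edgeR p = 0.00148 unadjusted, adjusted p = 0.377) and passed in DESeq2. The slope was 0.77 ± 0.29 for Hbb-bt and 0.73 ± 0.23 for Hba-a2, with adjusted p of 0.415 and 0.404 in edgeR. All 4 were positive, and none passed in the edgeR fit. Slc4a1 had a slope of -0.14 ± 0.40 (edgeR adjusted p = 0.929). Among the 13 red cell genes tested, 8 slopes were positive and 5 negative (median 0.28), and the 4 positive at an unadjusted p under 0.05 were Hba-a1, Alas2, Hba-a2 and Hbb-bt. With the filter on low counts applied anew, the red cell median was -0.022 without column 22 (E4-15 3), and 0.88 without the hindbrain-rich libraries. Its sign was thus not stable. The part of a changed set of tested genes in this was not tested. Alas2 came to 3.68% to 14.5% of the Hbb-bs counts in these libraries, a narrower span than that of Slc4a1.

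**Figure D4:**
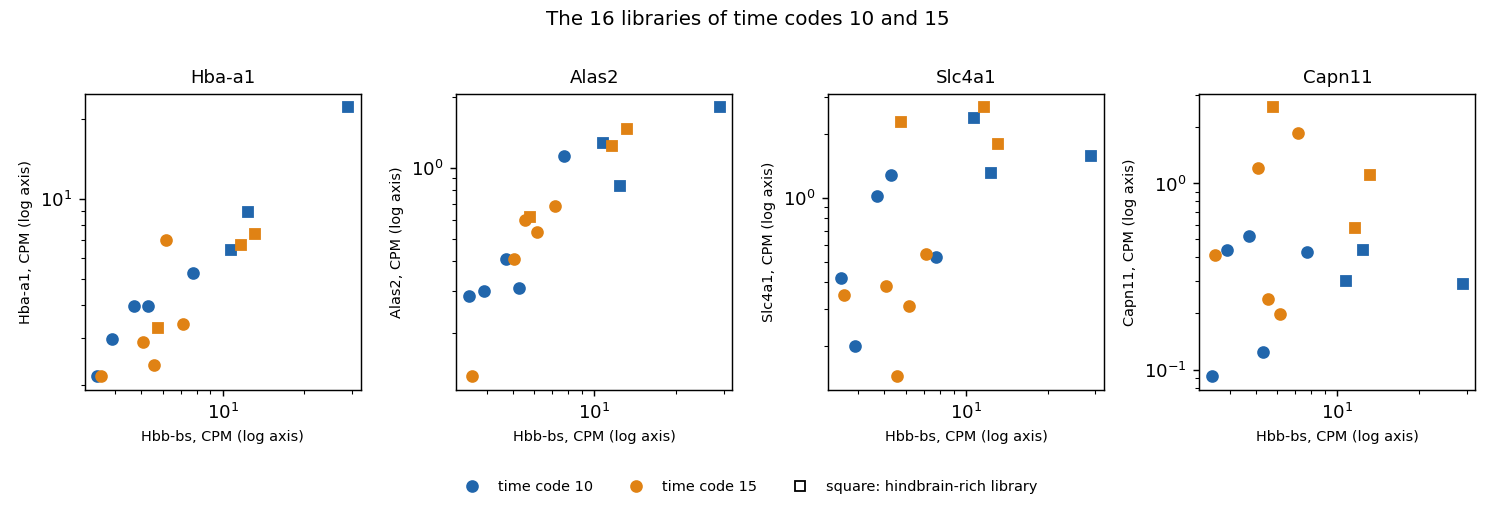
CPM of 4 genes against that of Hbb-bs, both on log axes, in the 16 libraries of time codes 10 and 15, with 1 point for each library. Hba-a1 and Alas2 run along with Hbb-bs, with slopes of 1.07 and 1.03, while Slc4a1 and Capn11 are scattered, with slopes of -0.14 and -0.06.

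The range of Hbb-bs in the 16 libraries rested in part on column 9 (E3-10 1), which had 29.0 CPM where the next library had 13.2 CPM. Without column 9, 717 genes had an unadjusted p under 0.05 in edgeR in place of 2095, the smallest adjusted p was 0.9998, and the slope of Hba-a1 was 0.98. The range also rested on the hindbrain-rich libraries, column 9 among them. Hbb-bs was at 5.77 to 29.0 CPM in these and at 3.45 to 7.75 CPM in the others. Without the hindbrain-rich libraries, 715 genes had an unadjusted p under 0.05 in edgeR, with a smallest adjusted p of 0.9998. Column 9 also had the highest myelin list mean of the 24 libraries, at 8.61 log2 CPM.

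The genes that set columns 1 to 3 apart beside haemoglobin did not all keep their direction in these libraries. Capn11 had a slope of -0.06 ± 0.48, Tbc1d8 of -0.01 ± 0.22 and Zfp469 of 0.18 ± 0.10. The myelin list, lower in columns 1 to 3, had 14 of 14 positive slopes here (median 0.45), all at an unadjusted p under 0.05 and 0 past the adjusted threshold. Neutrophil genes had 10 positive and 3 negative slopes (median 0.29), and 1 of the 13 was at an unadjusted p under 0.05; the median was 0.69 without column 9 and 0.11 without column 22. Endothelial genes had 19 of 20 positive slopes with a median of 0.08, but the median was -0.00093 without column 9 and -0.06 with terms for sets of 3 adjacent columns. Early response genes had 19 of 19 negative slopes (median -0.45), 9 of them at an unadjusted p under 0.05 and 0 past the adjusted threshold; without column 9 the median was -0.71. Egr4, an early response factor, had the smallest p of that list, with a slope of -0.84 ± 0.16 (edgeR adjusted p = 0.377). Fos had a slope of -0.36 ± 0.22. All 12 striatum genes had positive slopes (median 0.52), with 2 at an unadjusted p under 0.05.

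**Figure D5:**
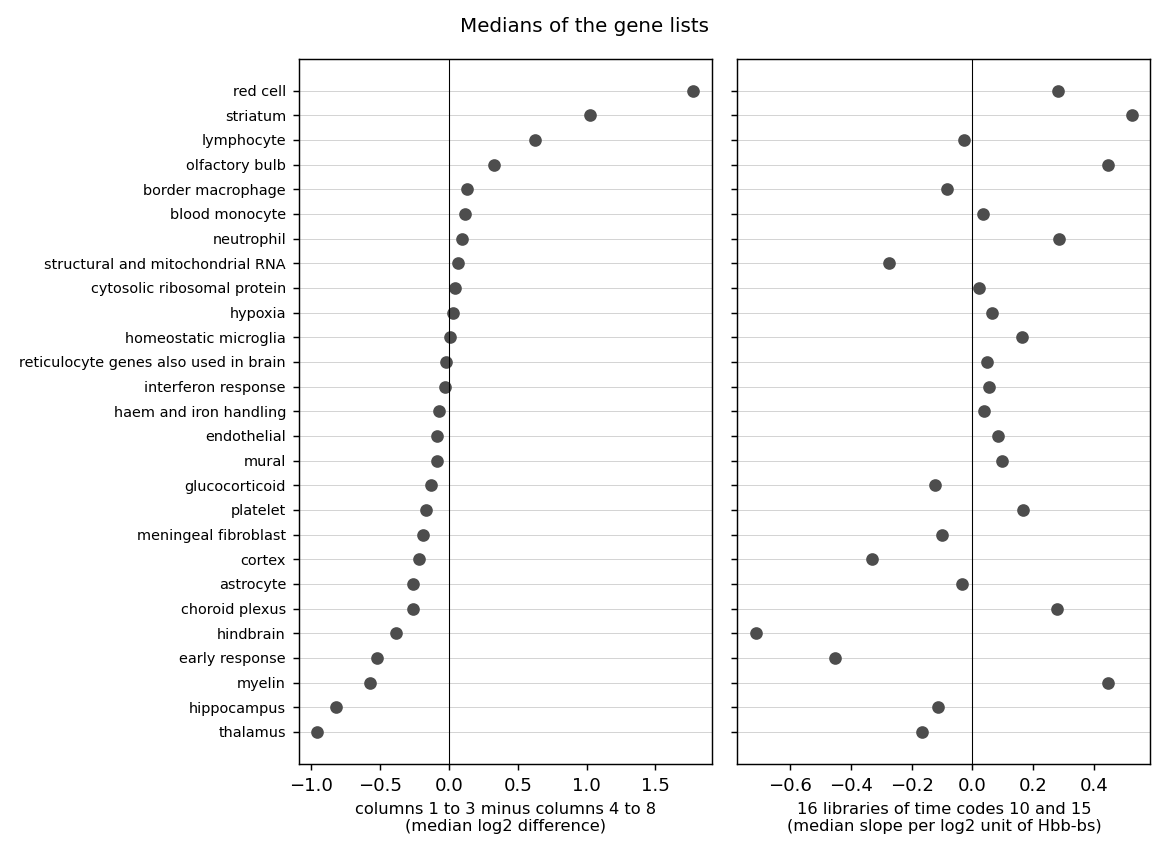
Medians of 27 gene lists: at left the log2 difference of columns 1 to 3 minus columns 4 to 8, at right the slope on log2 CPM of Hbb-bs in the 16 libraries of time codes 10 and 15. Red cell, striatum and early response lists lie on the same side in both panels, as do others such as cortex, thalamus and hippocampus. The myelin list is at -0.57 at left and 0.45 at right. The hypothalamus and pituitary list, with a median of -2.30 at left, is not drawn.

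Of the genes with a log2 difference above 1 in columns 1 to 3, 191 were tested in both sets; 112 had a positive slope in the 16 libraries, where 9876 of all 19846 genes did, and 23 of the 191 did so at an unadjusted p under 0.05, against 5.15% of all genes. These 23 include Hba-a1, Alas2, Hba-a2 and Hbb-bt, and, named after their values were seen, Chat and Slc18a3, which make and load acetylcholine. Chat was at 13.9, 16.0 and 6.77 CPM in columns 1 to 3, against 2.6, 8.27, 6.01, 3.39 and 9.52 CPM in columns 4 to 8. Of the genes below -1, 324 were tested in both; 196 had a negative slope, where 9970 of all genes did, and 11 of the 324 did so at an unadjusted p under 0.05, a smaller share than the 5.4% of all genes. Genes with the smallest p in the 16 libraries beside Hba-a1 were Frmd4b (slope 0.34 ± 0.06), Klhl14 (0.91 ± 0.18) and Dmrtc1a (0.53 ± 0.10) on the positive side, and Gm5454 (-0.78 ± 0.14), Tmem145 (-0.52 ± 0.10), Egr4 and Gm14169 (-0.42 ± 0.09) on the negative side. In columns 1 to 3 against columns 4 to 8 their log2 differences were -0.15 for Frmd4b, 0.57 for Klhl14, 0.46 for Dmrtc1a, 0.10 for Gm5454, -0.09 for Tmem145, -0.16 for Egr4 and -0.41 for Gm14169.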

How the data were processed

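Per the labels, brain tissue was lysed in TRIzol and libraries of polyadenylated RNA were read on an Illumina NovaSeq. Per the submitters' processing notes, reads were aligned with HISAT2 2.1.0 to mm39 and counted with featureCounts 2.0.6; annotation and strand setting are not given in the sources used here. The authors deposited counts that are not normalized, for 40836 gene symbols in 24 columns, joined to libraries by the column number in the labels. Even numbers made up 62.6% to 70.8% of the counts from 1 to 19, so fragments are fewer than counts. No 2 libraries shared more than 0.735% of the counts of 15112 genes.

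Differences and slopes were fitted in R 4.3.3 with edgeR 4.0.16 (TMM factors, filterByExpr, quasi-likelihood test, Benjamini-Hochberg adjusted p over all genes tested) and checked on simulated data. The fit of 8 libraries had 5 residual degrees of freedom, that of 16 had 10, with Hbb-bs left out of its tests. The biological coefficient of variation was 20.6% and 21.2%. DESeq2 1.42.0 and limma-voom (limma 3.58.1) were alternatives. Log2 CPM use a prior count of 2. The libraries, the 28 gene lists and the hindbrain term were chosen with earlier results of these data known. Named genes are the red cell list, up to 10 genes a direction past the threshold in each fit or, where under 4 passed, those of smallest p (6 or 4), and up to 4 genes of smallest p per list; others were chosen after their values were seen. A few genes the rule takes are not reported here.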

Additional observations from a re-analysis of the deposited data

Results flagged for a closer look

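Among columns 4 to 8, column 6 lay far from the other 4 libraries in several blood cell measures. Of 21 genes and 28 lists examined, 4 genes and 7 lists had a library whose gap to the next exceeded the limit for 5 samples. That limit is passed about 1 time in 20 by normal values. Genes were taken on the CPM scale, and most of the flags share column 6, so nothing is read from their number. In column 6, Slc4a1 was at 10.5 CPM (next 0.265), Hba-a2 at 6.38 CPM (next 1.98) and Alas2 at 4.37 CPM (next 1.40). The mean log2 CPM of the red cell list was 0.202 in column 6 (next -2.12), of the neutrophil list 1.34 (next -1.65), of the platelet list 0.488 (next -0.989) and of the blood monocyte list 0.254 (next -1.58). Column 6 is also the hindbrain-rich library of these 5: its hindbrain list mean was 5.93 (next -0.064), its homeostatic microglia list mean 3.74 (lowest, next 4.51) and its striatum list mean 2.78 (lowest, next 5.29). Dusp1 was highest in column 7, at 69.6 CPM (next 51.7).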

How the results depend on the processing

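In the 8 libraries of time code 05 the threshold was passed by 3 genes with no filter on low counts, 83 with DESeq2, 0 with no hindbrain term, 7 without the hindbrain-rich libraries, 2 in a fit of all 24 libraries and 3 against columns 4 to 6 alone; leaving out each library gave 0 to 4. RLE and upper-quartile factors, a filter of 1 CPM in 3 libraries, limma-voom and an E code term kept it at 1. In the 16 libraries 65 genes passed with DESeq2, 4 with limma-voom and 1 with no group terms, and leaving out each library gave 0 to 5. The cause was not tested. With terms for sets of 3 adjacent columns, with the mean of 4 haemoglobin genes and without the hindbrain-rich libraries 0 passed. No value changed its sign in a way that reversed a call. The Hbb-bs difference ran from 3.05 to 4.44, that of Slc4a1 from -0.68 to 2.95, and the slope of Hba-a1 from 0.82 to 1.17, with edgeR, DESeq2 and limma-voom adjusted p from 3.1e-06 to 1.0.

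No paired analysis was possible for columns 1 to 3 against 4 to 8, because the groups share only library number 2. In the 16 libraries a replicate block left 0 genes past the threshold, with 1400 at an unadjusted p under 0.05 and a smallest adjusted p of 0.687. Same-numbered libraries did not deviate together (median correlation -0.238 over 24 pairs, lowest -0.743, against 0.222 for different numbers), and 3 of 16 libraries correlated best with their own number. These correlations had no term for hindbrain-rich libraries, which do not carry the same numbers in each group. They therefore cannot decide whether the numbers pair the libraries. Genes under about 1 CPM rest on few counts here.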
